A study of Drosophila melanogaster with 6 samples.

Results

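The genes described here are traffic jam (tj, FBgn0000964), flamenco (flam, FBgn0267704) and DIP1 (FBgn0024807), which are 3 of the 17633 genes in a table of ovarian RNA counts. They were picked by gene identifier, with earlier results of these data known. The 6 polyA libraries, in 2 groups of 3, came from ovaries of adult Drosophila melanogaster at an age of 3 to 6 days. The first group, called homozygous here, carried flamDeltaProm on both X chromosomes. The second, called the FM7 controls, carried flamDeltaProm on one X and the balancer FM7 on the other, with the autosomes written as +/+ in both groups. Every animal therefore carried at least 1 copy of the deletion, and the comparison is between 2 copies and 1 copy over a balancer with its own X alleles. Titles of the control libraries give WT as the other X, whereas their genotype field names FM7, and that field was followed. The labels do not state how far the deletion extends. They do not say either that replicates came from different animals, so a p-value here reflects variation among 3 libraries a group that could be technical only.

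In the follicle cells that surround the germ line, long RNAs of flam are cut into piRNAs, small RNAs that guide the Argonaute protein Piwi to transposon transcripts. flam is a heterochromatic X-linked locus, built largely of transposon remnants that lie in the opposite direction to its transcription, so its RNA is antisense to many elements. tj encodes a large Maf transcription factor of the basic leucine zipper type that marks the somatic cells of the gonad and is needed for their development. DIP1 encodes a nuclear protein that binds dsRNA and was named for its interaction with the transcription factor Disconnected. It is the protein-coding gene next to the flam promoter and is transcribed away from it.

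Library totals ran from 19564819 to 23181058 counts. Values are given as CPM, counts scaled to library size with TMM factors, and tests are edgeR's quasi-likelihood test with adjustment over all 9229 genes and transposon families tested and a threshold of 0.05. Of these, 1815 were called (19.7%), of which 712 were lower in homozygotes (7.71%) and 1103 were higher (12.0%). Scaling by library sizes alone gave 322 lower and 1569 higher. The germline gene osk, whose RNA localises to the posterior of the oocyte, was present in both groups, at 1561 ± 60.8 CPM in homozygotes and 1566 ± 165 CPM in controls (SD, n = 3). It does not stand for all germline genes, since 6 of 8 tested germline markers, osk not among them, had a positive log2 fold change.

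All 3 genes were lower in the homozygous ovaries. flam fell by the most, by 73.9%, tj fell by 45.2% and DIP1 by 24.4%. Both groups were separate for 41.9% of all genes and families tested. For each of the 3, every homozygous library was below every control library, as was the case for 20.0% of all genes and families tested. In whole ovaries, fewer cells of a type and less RNA per cell cannot be told apart.

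**Figure D1:**
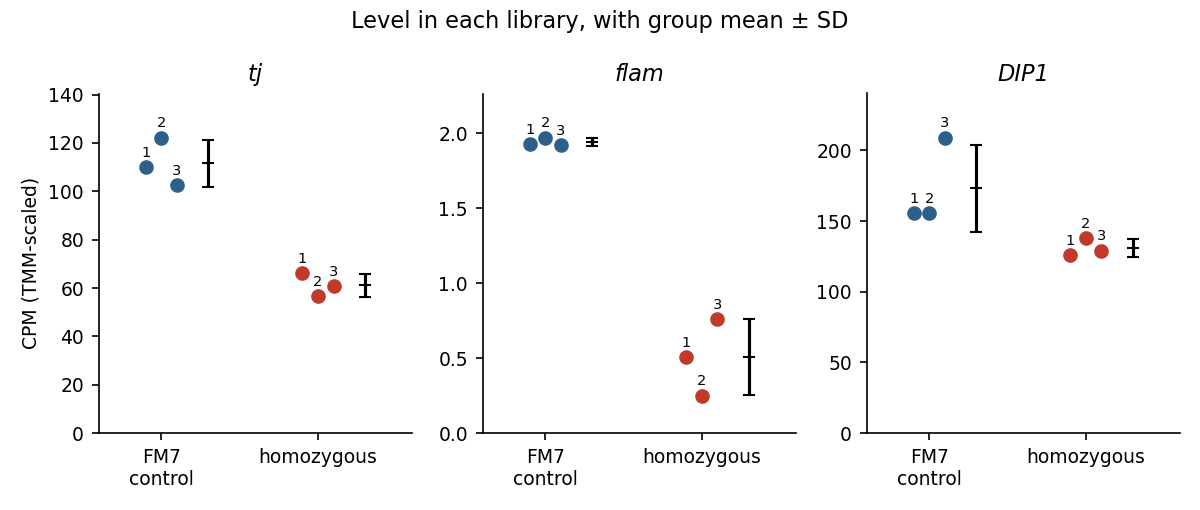
Level of each gene in CPM in the 3 FM7 control and 3 homozygous libraries, numbered by replicate, with the group mean and SD beside the points. The homozygous libraries lie below the controls for all 3 genes, with the narrowest gap for DIP1, where FM7 replicate 3 stands above the other controls at 209 CPM.

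flam RNA was scarce in both groups. The controls had 43, 37 and 41 counts in replicates 1 to 3, which is 1.93, 1.97 and 1.92 CPM. The homozygotes had 12, 6 and 18 counts, which is 0.507, 0.251 and 0.760 CPM. The controls were close to each other, whereas the highest homozygote had 3.03 times the level of the lowest, and the lowest control had 2.53 times the level of the highest homozygote. The counts limit the precision of these values, since the exact 95% Poisson interval of a single library was 2.20 to 13.1 counts for homozygous replicate 2 and 31.1 to 57.9 counts for FM7 replicate 1. Pooled over libraries, 36 against 121 counts gave a ratio of 0.261 with an exact 95% interval of 0.174 to 0.381, which covers counting error only. The fitted log2 fold change was -1.94 (SE 0.39, 95% interval -2.83 to -1.05, adjusted p = 0.0119). The gene remained past the threshold in each of the 6 fits that left out 1 library, with a log2 fold change from -2.36 to -1.62. flam counts were above 0 in every homozygous library, and they cannot be assigned to a part of the locus.

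In assembly BDGP6.54 flam runs on X from 21631891 to 21790731, plus strand, a span of 158841 bp, with 16 noncoding transcripts, of which 13 begin at the first base of the gene. Its exons cover 17427 bp. Per kb of annotated exon, flam stood at 0.111 ± 0.0015 CPM per kb in controls and 0.029 ± 0.0146 CPM per kb in homozygotes, tj at 31.9 ± 2.82 and 17.5 ± 1.36, and DIP1 at 45.3 ± 8.05 and 34.3 ± 1.62 (SD, n = 3). On this scale flam was far below the other 2 genes in both groups. The labels do not say how reads that map to several places were counted, and flam is repetitive, so its level per kb may leave out reads of repeated stretches.

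The annotation places 47 transposon insertions in the flam span, which together cover 69.1% of it, and 37 of them lie on the minus strand, opposite to flam. The DIP1 gene holds 1 insertion, of the HB family, and tj holds 0. The insertions in flam belong to 24 families, all of which have their own entry in the count table. By the length from first to last base of their copies, the leading families were Stalker4 (21083 bp in 8 insertions), mdg1 (17285 bp in 6), Stalker2 (15621 bp in 2) and blood (14876 bp in 1), all of the Gypsy class of LTR retrotransposons. These lengths include copies of other families nested inside, such as 412 within Stalker2 and springer within blood. The sequence of each family alone is therefore shorter for some of them, and the order by it may differ. This map is that of the reference genome, and the chromosomes of these flies may differ from it.

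**Figure D2:**
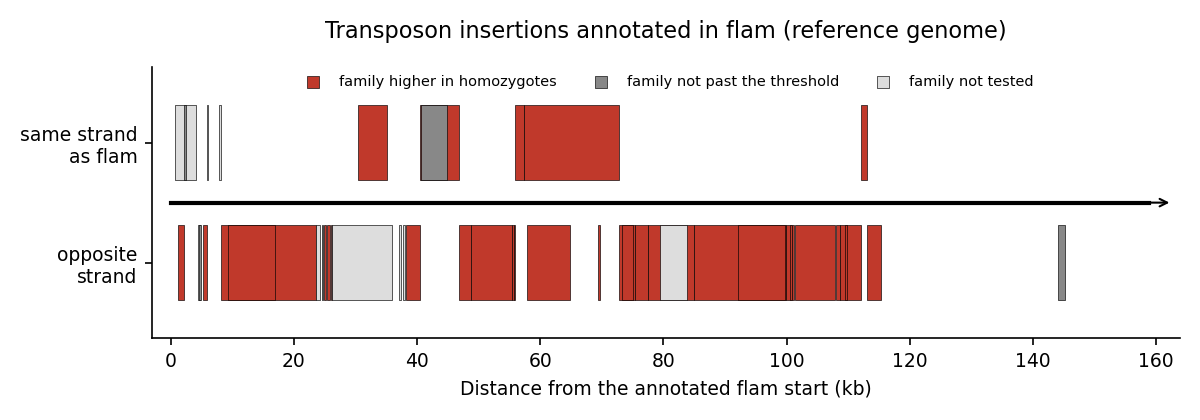
Transposon insertions annotated in flam, drawn to scale by distance in kb from the annotated flam start, above the line where they lie on the same strand as flam and below it where they lie on the opposite strand. Colour gives the result for the whole family in the count table, and 37 of the 47 insertions are below the line.

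RNA of many families present in flam was higher in the homozygous ovaries. Of the 24 families, 17 passed the filter on low counts, and 12 of these were higher in homozygotes and 0 lower. Their median was 2.75 on the log2 fold scale. Stalker4, Stalker, gypsy6 and Cr1a passed that filter only through the homozygous libraries, and 3 of these 4 are among the 12, so the count and the median are raised by the filter. Of the 13 families over the minimum in all control libraries, a restriction chosen after seeing the data, 9 were higher, with a median of 1.43. Of the 62 tested families with no annotated insertion in flam, 20 were higher and 3 lower, with a median of 0.51, and of the 51 over the minimum in all control libraries, 15 were higher and 3 lower, with a median of 0.32. Over all 79 tested families, 32 were higher (40.5%) and 3 lower (3.80%). These shares are given as a description, since families differ in abundance and share sequence. Among the 14 tested families with most of their insertions opposite to flam, 11 were higher, and among the other 3 it was 1, the LINE family F-element (log2 fold change 1.43). Stalker4, Stalker and gypsy6 are among the 11 and Cr1a is among the other 3, so the filter affects this split as well. It goes by number of insertions, and the longest mdg1 copy lies on the strand of flam although mdg1 is in the 14. Stalker4 went from 0.352 ± 0.108 to 18.7 ± 9.66 CPM (SD, n = 3), with a fitted difference of 5.73 on the log2 scale (SE 0.50). mdg1 went from 2.72 ± 0.477 to 316 ± 11.4 CPM, Stalker2 from 10.2 ± 1.21 to 69.1 ± 16.4 CPM and blood from 56.8 ± 4.36 to 854 ± 99.4 CPM, and all 4 were past the threshold under each alternative in which they were tested. Some of the 24 families were not called. Idefix, with 124 bp in flam, had 0.610 ± 0.0282 CPM in controls and 0.659 ± 0.0635 in homozygotes (log2 fold change 0.11, adjusted p = 0.819), and ZAM, with 257 bp, had 15 counts in all controls and 13 in all homozygotes and was not tested. F-element, Idefix and ZAM were singled out after their values were seen.

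Set beside flam in single libraries, the Gypsy-class families together took 0.515%, 0.794% and 0.569% of the counts in homozygous replicates 1 to 3, and 0.0301%, 0.0262% and 0.0264% in FM7 replicates 1 to 3. The groups did not overlap. Within the homozygotes the order was not the reverse of that of flam, since replicate 2 had the lowest flam level and the highest Gypsy-class share, but replicate 3, with the highest flam level, had a higher share than replicate 1.

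DIP1 occupies the opposite strand of X from 21624796 to 21630148, and 1742 bp separate it from flam. Its levels were 155, 156 and 209 CPM in FM7 replicates 1 to 3 and 126, 138 and 129 CPM in homozygous replicates 1 to 3. The groups did not overlap, but the lowest control was only 1.13 times the highest homozygote, and FM7 replicate 3 stood at 1.34 times the lowest control. The log2 fold change was -0.40 (SE 0.12, 95% interval -0.67 to -0.14), with an adjusted p of 0.0472 by edgeR, close to the threshold. Without FM7 replicate 3 the log2 fold change was -0.25 and past the threshold (adjusted p = 0.0173), and without FM7 replicate 2 it was -0.48 (adjusted p = 0.0358). Leaving out any one homozygous library ended the call (adjusted p = 0.105, 0.0951 and 0.143 for replicates 1 to 3), as did leaving out FM7 replicate 1 (adjusted p = 0.0568) and scaling by library sizes alone (adjusted p = 0.115). The value was negative in all 14 alternatives, and its size and its call rest on single libraries.

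The ratio between these neighbours was lower in homozygous libraries. The ratio of flam to DIP1 was 0.0124, 0.0127 and 0.0092 in FM7 replicates 1 to 3 and 0.0040, 0.0018 and 0.0059 in homozygous replicates 1 to 3, so the groups did not overlap. The mean log2 ratio was -6.47 ± 0.26 in controls and -8.16 ± 0.86 in homozygotes (SD, n = 3), a difference of -1.69. The exact permutation test, two-sided, gave p = 0.1, the smallest that 3 against 3 samples allow, so it cannot pass 0.05 at this size.

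**Figure D3:**
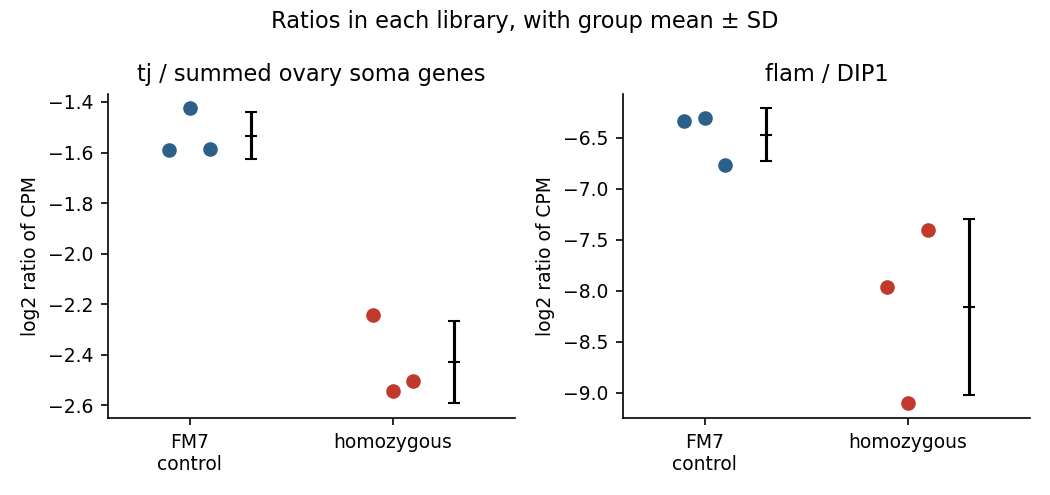
Log2 ratio of CPM in each library, with group mean and SD, for tj against the summed level of 15 ovary soma genes and for flam against DIP1. In both plots the 3 homozygous libraries lie below the 3 controls.

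Beyond DIP1, the 5 nearest genes with at least 50 counts were not called. The gap between DIP1 and flam holds lncRNA:CR44712 (X, 21630908 to 21631433), which ends 457 bp before flam and had 6 counts in all homozygotes and 4 in all controls, too few to test. Next on the side of DIP1 lie CG32500, CG32857 and CG33502, with starts 10.4, 16.4 and 22.5 kb from that of flam. Their log2 fold changes were 0.11, 0.14 and 0.08, with adjusted p of 0.403, 0.250 and 0.463. These 3 genes follow each other on the same strand with similar levels, and whether their reads could be split between them is not known, so their values are uncertain. GCS2alpha, a glucosidase II subunit gene, had a log2 fold change of -0.13 (95% interval -0.27 to 0.02, adjusted p = 0.191 by edgeR). That of lncRNA:CR46472, 112 kb away, was -0.13 (95% interval -0.24 to -0.01, adjusted p = 0.116 by edgeR). For both of these genes every homozygous library was below every control, as for 20.0% of all genes and families tested. Of 30 tested genes other than DIP1 that start within 500 kb of flam, 4 were higher and 1 lower, against 12.0% and 7.71% over all features, so the count says nothing particular of this region. All of them lie on the side of DIP1, so the far side of flam holds no tested gene within this distance.

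The groups differ in the X chromosome by the balancer as well. Of 1605 tested X genes, 215 were higher (13.4%) and 112 lower (6.98%), and their median was 0.02 on the log2 fold scale. The share lower was 9.13% on 2L, 6.64% on 2R, 9.47% on 3L and 6.66% on 3R, with medians from -0.02 to -0.01. The effect of FM7 alleles on flam and DIP1 cannot be told apart from that of the deletion, since every control carries the balancer.

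tj lies outside this region, on the plus strand of 2L from 19464267 to 19467758, as a gene of 1 exon. It was measured far more precisely than flam, with 2454, 2294 and 2190 counts in FM7 replicates 1 to 3 and 1565, 1355 and 1438 in homozygous replicates 1 to 3. The levels were 110, 122 and 103 CPM in the controls and 66.1, 56.7 and 60.7 CPM in the homozygotes. Within each group the highest library was close to the lowest, at 1.19 times in controls and 1.17 times in homozygotes, whereas the lowest control had 1.55 times the level of the highest homozygote. The log2 fold change was -0.87 (SE 0.08, 95% interval -1.05 to -0.68, adjusted p = 5.5e-04 by edgeR). It ranged from -0.93 to -0.80 when 1 library was left out, and was past the threshold in all 6 of those fits and in each of the other alternatives. Of the 712 genes and families called lower, 146 had a larger fall than tj and 29 a larger fall than flam.

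**Figure D4:**
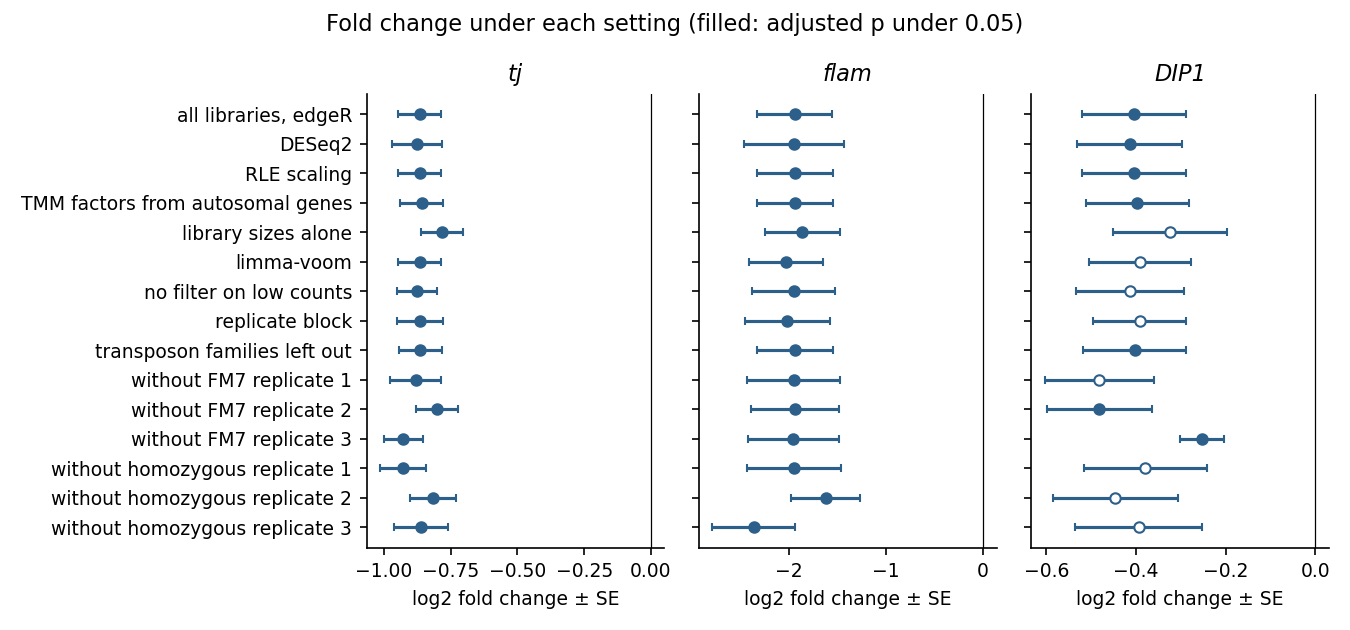
Log2 fold change with its SE for tj, flam and DIP1 in the fit with all libraries and under each alternative, with filled points where the adjusted p was under 0.05. tj and flam are filled in every row, and DIP1 is open in 8 of the 14 alternatives.

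Of 94 tested genes starting within 500 kb of tj, 9 were higher and 9 lower, shares near those over all features (12.0% and 7.71%). The nearest was CG10026, 10.01 kb away (log2 fold change 0.24, adjusted p = 0.709). Top2, which encodes DNA topoisomerase 2, was at 637 ± 45.9 CPM in homozygotes and 634 ± 60.6 in controls (0.01, adjusted p = 0.968), CG10195 had a log2 fold change of 0.06 (adjusted p = 0.604) and Hs2st, a heparan sulfate sulfotransferase gene, one of -0.15 (adjusted p = 0.210). CG13084, 20.7 kb from tj, was at 91.2 ± 66.1 CPM in homozygotes and 427 ± 25.4 in controls, with a wide spread in homozygotes (-2.23, 95% interval -3.91 to -0.55, adjusted p = 0.0777), and it was past the threshold without homozygous replicate 1 and by DESeq2.

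The summed level of an ovary soma list overlapped between the groups, but only with the gene Fas3 in the sum. Its 15 tested genes summed to 313 to 344 CPM in homozygotes and 308 to 331 CPM in controls. Fas3, 1 of the 15, went from 42.5 ± 6.15 CPM in controls to 85.1 ± 11.3 in homozygotes (SD, n = 3). It raises the sum, and lowers the ratio of tj to it, in homozygotes. With Fas3 left out, the other genes together were lower in every homozygous library than in every control. That step was chosen after the values were seen. The size of the difference in the tj ratio without Fas3 was not computed. Against the sum of all 15, tj stood at 0.332, 0.372 and 0.333 in FM7 replicates 1 to 3 and at 0.211, 0.172 and 0.177 in homozygous replicates 1 to 3. The mean log2 ratio differed by -0.90 between the groups (-2.43 ± 0.16 against -1.53 ± 0.09, SD, n = 3, exact permutation p = 0.1, two-sided, the smallest possible). With the mean of log2 levels over the list in place of the sum, the difference was -1.25.

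Single genes of the ovary soma list moved in both directions, with 4 higher, 3 lower and 8 not past the threshold, against 12.0% higher and 7.71% lower over all features, and a median log2 fold change of 0.29 against -0.01 over all features tested. bab1 passed the filter on low counts only through the homozygous libraries. Over the 14 genes above the minimum in all controls, a restriction chosen after seeing the data, the median was 0.19. cas, a zinc finger factor gene of early follicle cells, stood at 1.75, 1.92 and 1.69 CPM in FM7 replicates 1 to 3 and at 7.99, 9.07 and 8.86 in homozygous replicates 1 to 3 (log2 fold change 2.28, SE 0.18, adjusted p = 2.7e-04). bab2, a BTB factor gene of the ovarian niche, rose (1.86, SE 0.28), as did ptc, the Hedgehog receptor gene (0.91, SE 0.19). Cad99C, a cadherin gene of follicle cell microvilli, fell from 77.8, 77.3 and 81.6 to 45.6, 48.9 and 42.8 CPM (-0.79, SE 0.06, adjusted p = 2.7e-04), close to the size of the change in tj. br, an ecdysone-response factor gene of later follicle cells, fell (-0.67, SE 0.09), and slbo, the C/EBP gene of border cells, fell from a low level (-1.29, SE 0.30). ptc was no longer past the threshold without FM7 replicate 1 or homozygous replicate 2 or 3 (adjusted p up to 0.0595), nor slbo without FM7 replicate 1 or 3 or homozygous replicate 2 or 3 (adjusted p up to 0.0750). zfh1 and eya, which encode factors of somatic gonad identity, had log2 fold changes of 0.10 (95% interval -0.04 to 0.24) and -0.01 (-0.28 to 0.27). zfh1 and eya were named after their values were seen.

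Of 3 adhesion genes whose proteins are known to be raised in gonads that lack tj, 1 was higher. Over all features 12.0% were higher, and 3 genes are too few to set against that share. Fas3, which encodes the adhesion protein Fasciclin 3 of follicle cells, was at 48.6, 42.7 and 36.3 CPM in FM7 replicates 1 to 3 and at 72.4, 89.1 and 93.9 CPM in homozygous replicates 1 to 3, so the groups did not overlap. Fas3 is in both lists, and its log2 fold change was 1.001 (SE 0.13, adjusted p = 0.0035), and it was past the threshold in all 6 fits without 1 library. shg, the E-cadherin gene, had a log2 fold change of 0.14 (95% interval -0.03 to 0.30, adjusted p = 0.216), and Nrt, which encodes Neurotactin, one of 0.05 (95% interval -0.16 to 0.27, adjusted p = 0.727).

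No gene of the somatic piRNA machinery passed the test in either direction. All 12 genes of the list were tested, 0 were called, and the median log2 fold change was 0.02. Over all features 19.7% were called, a share at which a list this short holds few calls. By unadjusted p under 0.05, 1 of them, piwi, had a positive value, and 0 were called by DESeq2 or limma-voom. piwi was at 227, 220 and 225 CPM in FM7 replicates 1 to 3 and at 234, 258 and 249 CPM in homozygous replicates 1 to 3 (0.14, 95% interval 0.02 to 0.26, adjusted p = 0.098 by edgeR), and was past the threshold with library sizes alone. fs(1)Yb, whose protein organises the Yb bodies in which flam RNA is processed, stood at 6.90, 7.29 and 5.11 CPM in the controls and at 7.35, 8.66 and 8.23 CPM in the homozygotes (0.33, 95% interval -0.07 to 0.73, adjusted p = 0.214). The groups did not overlap for either gene, and neither was lower in homozygotes. armi, a helicase gene (0.07), vret and SoYb, Tudor domain genes (0.10 and 0.03), shu, an immunophilin-like gene (0.03), and mino (0.02) had positive values. zuc, the endonuclease that cuts piRNA precursors (-0.00098), Gasz (-0.10), daed (-0.06), Hen1, the piRNA methyltransferase (-0.11), and Hsp83, the Hsp90 chaperone (-0.11), had values below 0, and Hsp83 was past the threshold only without FM7 replicate 3. The 95% intervals of these 10 lay within -0.34 and 0.23.

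**Figure D5:**
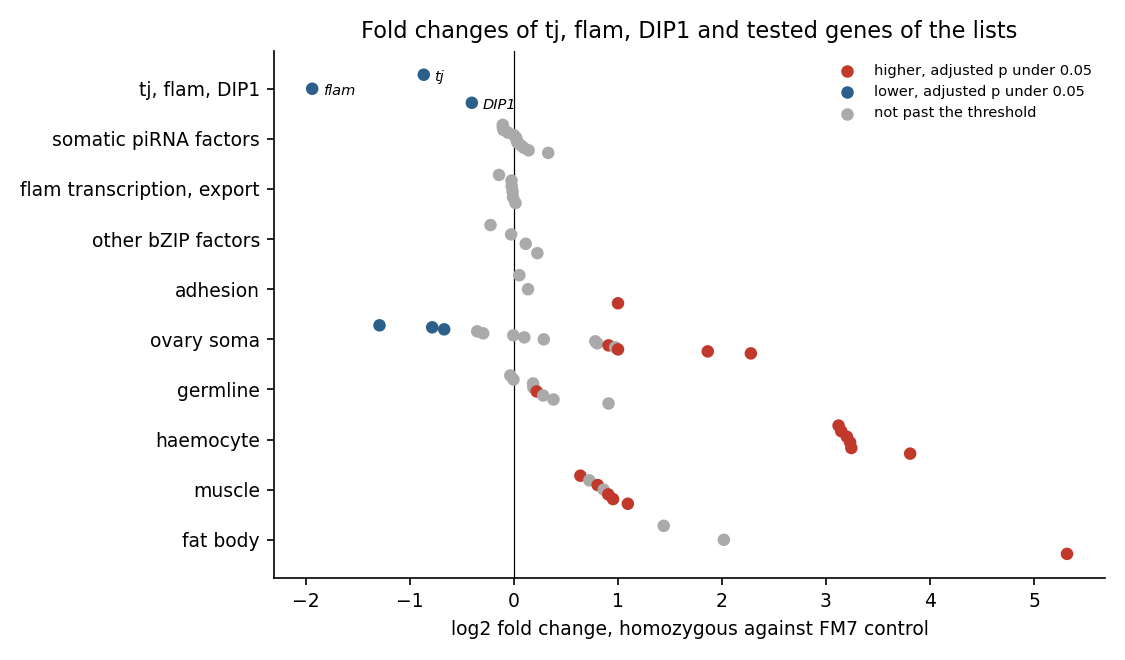
Log2 fold change of homozygous against FM7 control for tj, flam and DIP1 and for each tested gene of the lists, coloured by whether the adjusted p was under 0.05. The piRNA, export and basic leucine zipper genes cluster around 0, whereas ovary soma genes lie on both sides and haemocyte markers lie above 3.

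Genes that act on flam RNA before it is processed were likewise not called. The list held 6, all tested, with 0 called by edgeR, DESeq2 or limma-voom and a median log2 fold change of -0.02. Over all features edgeR called 19.7%, a share at which lists as short as those in this paragraph hold few calls. ci, the Hedgehog pathway factor known to activate flam in follicle cells, was at 22.0, 18.3 and 13.9 CPM in FM7 replicates 1 to 3 and at 16.5, 17.9 and 19.0 CPM in homozygous replicates 1 to 3, so that the homozygotes lay within the range of the controls (-0.02, 95% interval -0.38 to 0.34, adjusted p = 0.938). The nuclear export genes sbr, Nxt1 and Hel25E had log2 fold changes of -0.01, -0.02 and 0.02, and the exon junction genes mago and tsu had -0.01 and -0.14. tsu alone had an unadjusted p under 0.05 (adjusted p = 0.0907). Other basic leucine zipper genes of the Maf and AP-1 kind gave 0 calls of 4 by edgeR, DESeq2 or limma-voom, with log2 fold changes of -0.22 for maf-S, the small Maf gene (adjusted p = 0.064), -0.03 for cnc, 0.23 for kay and 0.11 for Jra. maf-S was the only one of these with an unadjusted p under 0.05, and it was past the threshold without FM7 replicate 2 (log2 fold change -0.30).

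Markers of some other cell types also differed between the groups. Over all features, 12.0% were higher and 7.71% lower. Haemocyte markers were higher for 6 of 6 tested genes, of which NimC1 and eater passed the filter on low counts only through the homozygous libraries. They were Hml, which encodes hemolectin (log2 fold change 3.23), NimC1 (3.81, with 16 counts in all controls), Pxn (3.15), eater (3.201, with 9), PPO1 (3.12) and PPO2 (3.24), and summed to 46.4 to 74.1 CPM in homozygotes and 5.15 to 7.98 CPM in controls. He had 3 counts in homozygotes and 0 in controls. NimC1 was past the threshold in 2 of the 6 fits without 1 library. Muscle markers were higher for 5 of 7, Act57B (0.64), up (0.81), Mp20 (0.95), bt (0.91) and TpnC73F (1.10), and summed to 318 to 498 CPM in homozygotes and 226 to 273 CPM in controls. Of these 5, Mp20 kept its call in 4 of the 6 fits without 1 library and the others in 2 or 3. Of 3 tested fat body markers, fit was higher (5.32, from 6 counts in all controls), and the 3 summed to 22.8 to 60.7 CPM in homozygotes and 12.5 to 15.7 CPM in controls. fit also passed the filter only through the homozygous libraries. Of the 3 fat body markers not tested, Fbp1 had 3 counts in all homozygotes and 18 in all controls, Fbp2 had 1 and 10, and Lsp1beta had 27 and 10, so the list did not go one way. Germline markers had 1 of 8 higher, near the share over all features. It was aub (0.22, adjusted p = 0.0475 by edgeR), a call lost in all 6 fits without 1 library. The germline markers summed to 2817 to 3161 CPM in homozygotes and 2660.4 to 3002 in controls, ranges that overlap. osk is the largest part of this sum. For vas, aub, orb, bam, bgcn and grk every homozygous library was above every control, and for AGO3 and osk the groups overlapped. Groups were separate in either direction for 41.9% of all features. The median log2 fold change of the 8 was 0.20, against -0.01 over all features. The part of these markers in the differences of tj, flam and DIP1 was not tested.

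The genes whose levels followed each of the 3 most closely were found by Pearson's r of log2 CPM over the 6 libraries. With 6 points in 2 groups many genes reach a high r, and 253 genes exceeded 0.95 for tj, 128 for flam and 136 for DIP1. For tj the highest were alpha-Est9, rnh1, TRAM, CG4679 and Tap42, with r from 0.995 to 0.999, and alpha-Est9 had a log2 fold change of -0.74, the nearest of the 5 in size to that of tj. For flam they were Mnat9, CG3437, CG12343, CG18622 and Jhbp1, with r from 0.994 to 0.996, and Jhbp1 fell by as much as flam on the log2 scale (-1.97, adjusted p = 0.0039). For DIP1 they were phtf, Uggt, Tango6, Mapmodulin and Klp10A, with r from 0.994 to 0.998, and 0 of these 5 were past the threshold.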

How the data were processed

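RNA was measured in 6 strand-specific libraries selected for polyA. The authors deposited raw counts for each gene and each transposon family in 1 table. The submitters' processing notes list STAR 2.7.8a, featureCounts 2.0.1 and DESeq2 1.30.1 and give no role for any of them. No label states the genome build, annotation, strand setting or treatment of multiply mapped reads. Positions and symbols come from Ensembl release 115, assembly BDGP6.54, which may not be the authors' build, and 35 identifiers had no match.

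From these counts, edgeR 4.0.16 (R 4.3.3) gave the robust quasi-likelihood test, with TMM factors, filterByExpr by group and Benjamini-Hochberg adjustment. The SE was derived from the fold change and its F statistic. Log CPM values for r used a prior count of 2. Alternatives used limma 3.58.1, DESeq2 1.42.0, other scalings, no filter, a replicate block and leaving out each library. Counts simulated for 9106 tested genes gave calls for 38 of 50 genes altered by 1.5-fold, 44 of 50 at 2-fold, 49 of 50 at 4-fold and 14 of 8906 unaltered genes. Only genes above a minimum mean level were altered, and the simulated spread followed the trend over genes. These rates do not cover scarcer genes or genes with a wider spread. At these depths 3 counts equal 0.125 to 0.160 CPM. Named genes were the 3 genes, all tested genes of the lists for piRNA machinery, flam transcription and export, basic leucine zipper factors and adhesion, called genes of the other lists, the 5 nearest genes with at least 50 counts and the 5 with the highest r. osk and the transposon families were named besides. The genes and lists were chosen with earlier results of these data known. The germline gene nos was not analysed here.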

Additional observations from a re-analysis of the deposited data

How the results depend on the processing

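tj and flam kept their direction and call under all 14 alternatives run. DIP1 kept its direction and lost its call with library sizes alone (log2 fold change -0.32, adjusted p = 0.115), limma-voom (-0.39, 0.0508), no filter on low counts (-0.41, 0.0685) and the replicate block (-0.39, 0.0613). Without 1 library the log2 fold change ran from -2.36 to -1.62 for flam, -0.48 to -0.25 for DIP1 and -0.93 to -0.80 for tj. The labels do not say whether same-numbered samples are paired. Deviations from the group means correlated at -0.30, -0.07 and -0.04 for same-numbered samples and at -0.19 to 0.28 for the others. These values cannot settle pairing, since the deviations within a group are not independent. Over all features the replicate block gave 700 higher and 349 lower calls, and 62 X genes lower and 11 neighbours of tj called. Library sizes alone gave 1569 higher and 322 lower calls, and 333 higher and 62 lower on X. Without 1 library the counts ran from 548 to 1009 higher and 227 to 855 lower over all features, 101 to 221 higher and 44 to 131 lower on X, 11 to 22 list genes, 3 to 5 neighbours of flam and 6 to 19 neighbours of tj, and were lowest without homozygous replicate 3 for all but the list genes and flam neighbours. The log2 ratio of tj to ovary soma genes differed by -1.25 with the mean of log2 levels, and by -0.99 to -0.84 without 1 library. That of flam to DIP1 differed by -2.06 to -1.21. Families with an insertion in flam had 9 to 13 called higher over the alternatives and other families 15 to 23. Of 12 named genes near 0 and not past the threshold, the sign changed with library sizes alone for Nxt1 (0.059), ci (0.064), cnc (0.055), daed (0.024), mago (0.070), sbr (0.073) and zuc (0.083). It changed for zuc also with autosomal TMM factors (0.0061), limma-voom (0.00067), the replicate block (0.0021) and without transposon families (0.00062), and for Top2 by DESeq2 (-0.0029) and with no filter (-0.0034). Without 1 library the values ran from -0.047 to 0.051 for Hel25E, -0.047 to 0.10 for Nrt, -0.087 to 0.022 for Nxt1, -0.027 to 0.11 for SoYb, -0.048 to 0.083 for Top2, -0.19 to 0.14 for ci, -0.065 to 0.020 for cnc, -0.059 to 0.038 for mago, -0.043 to 0.040 for sbr, -0.027 to 0.055 for shu and -0.081 to 0.065 for zuc. Leaving transposon families out of the fit was chosen after seeing the data. The causes were not tested, and fits without 1 library also had fewer samples. With 36 flam counts in all homozygotes, depth limits the size of its fold.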
